A study of Rattus norvegicus with 16 samples.

Results

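Thy1, Nt5e, Eng, Vcam1, Mcam, Alcam and Aoc3 are 7 genes of surface proteins used to recognise stromal, perivascular and endothelial cells, and each was found in the scanner files by its symbol. All 7 had 1 probe, and all 7 were among the 20571 genes tested. Their levels were compared between 4 cell populations sorted by flow cytometry from cultures of olfactory mucosa of male Fischer rats, with 4 biological replicates each and 1 array per replicate. The CD90 cells carry the glycoprotein encoded by Thy1, the TRKA-TGF cells are TRKA cells from cultures conditioned with TGF-a (transforming growth factor alpha), the TRKA cells are their counterpart from the common culture protocol, and the p75 cells carry the neurotrophin receptor p75, the product of Ngfr. The CD90, TRKA and p75 cells shared that protocol. The labels give a purity of sorted cells but no age or genotype, and do not say which antibody or gate separated the TRKA cells. RNA was amplified by PCR from lysed cells before labelling.

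Thy1, Nt5e and Eng encode CD90, CD73 and CD105, the trio of positive markers by which mesenchymal stromal cells in culture are usually defined. CD90 is a small glycoprotein held in the membrane by a lipid anchor, CD73 an enzyme of the cell surface that makes adenosine from AMP, and CD105 a co-receptor for ligands of the TGF-beta family. Vcam1, Mcam and Alcam encode adhesion molecules of the immunoglobulin superfamily (CD106, CD146 and CD166), and Aoc3 an amine oxidase of vessel walls and fat cells also called vascular adhesion protein. None of these genes belongs to 1 cell type: Mcam is also known from Schwann cells, Alcam from activated leukocytes and neurons, and Thy1 in rodents from neurons and thymocytes.

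The 3 probe sequences below show what was measured for the trio, on the probes that start within the first 2000 bases of their target transcript. They are written 5′ to 3′ as in the scanner files, and each is 60 bases long.
Thy1: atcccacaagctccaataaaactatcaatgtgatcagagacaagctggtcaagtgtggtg
Nt5e: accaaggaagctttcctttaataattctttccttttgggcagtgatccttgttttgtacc
Eng: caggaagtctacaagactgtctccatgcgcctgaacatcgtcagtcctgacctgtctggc
Positions are on rn4, as the array files give them. The Thy1 probe (gene 24832) starts at base 428 of its target and lies at chr8:47031186-47031646, a span of 461 bases of the genome for 60 bases of probe, so its match there is interrupted. The Nt5e probe (gene 58813) starts at base 1701 and lies at chr8:93634357-93634416. The Eng probe (gene 497010) starts at base 1955 and has no position in the files. The probe of Vcam1 (gene 25361) lies at chr2:212277695-212277754 on the minus strand, that of Mcam (gene 78967) at chr8:47127609-47127668, that of Alcam (gene 79559) at chr11:49629819-49629878 and that of Aoc3 (gene 29473) at chr10:90364882-90364941. The files do not say in which part of the gene (exon or UTR) a probe lies, and no annotation of rn4 was used here.

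Levels are processed signals on the log2 scale, set against the 75th percentile of their array, so that 0 is that percentile, and they are compared within a gene only. Means are given ± SD with n = 4. A signal is called measured where the scanner software marked it as well above background. The TRKA arrays measured less than the others: 51.4 to 57.5% of spots on the TRKA arrays were well above background, against 66.4 to 72.4% on the arrays of the other 3 populations. Among all genes tested, 37% were measured on 1 to 3 of the 4 TRKA arrays, against 19.8% in TRKA-TGF, 20.4% in CD90 and 21.9% in p75. CD90 and TRKA-TGF arrays lay on one slide and TRKA and p75 arrays on the other, each slide with its own scan. CD90 versus TRKA-TGF and TRKA versus p75 were thus compared within a slide, in different rows, and for the remaining 4 a difference between populations cannot be told apart from one between slides. In RNA from a whole population, fewer cells of a type and less RNA per cell cannot be told apart.

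The 7 genes did not follow 1 pattern. The mean level was highest in CD90 cells for Thy1, Vcam1 and Aoc3, in TRKA-TGF cells for Nt5e, in TRKA cells for Alcam and in p75 cells for Eng and Mcam. A difference was called at an adjusted p under 0.05 (limma over all genes, Benjamini-Hochberg). For Nt5e, Vcam1 and Alcam the highest population overlapped the next one and was not called against it (adjusted p = 0.944, 0.494 and 0.73). For Eng the 2 highest populations did not overlap, and their difference was not called (adjusted p = 0.415). Mcam and Alcam were each called in 5 of the 6 comparisons, Aoc3 in 3, Nt5e in 2, Eng in 1 and Vcam1 in 0, where the smallest unadjusted p of Vcam1 was 0.071. Thy1 restates the sort in any comparison with CD90 cells, so its values there are a description, and it was called in 2 of the other 3. Within the TRKA population 5 of the 7 genes (Thy1, Nt5e, Eng, Vcam1 and Mcam) were measured on some arrays and not on others, and not on the same ones, so that their TRKA means join measured values with values near background.

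**Figure D1:**
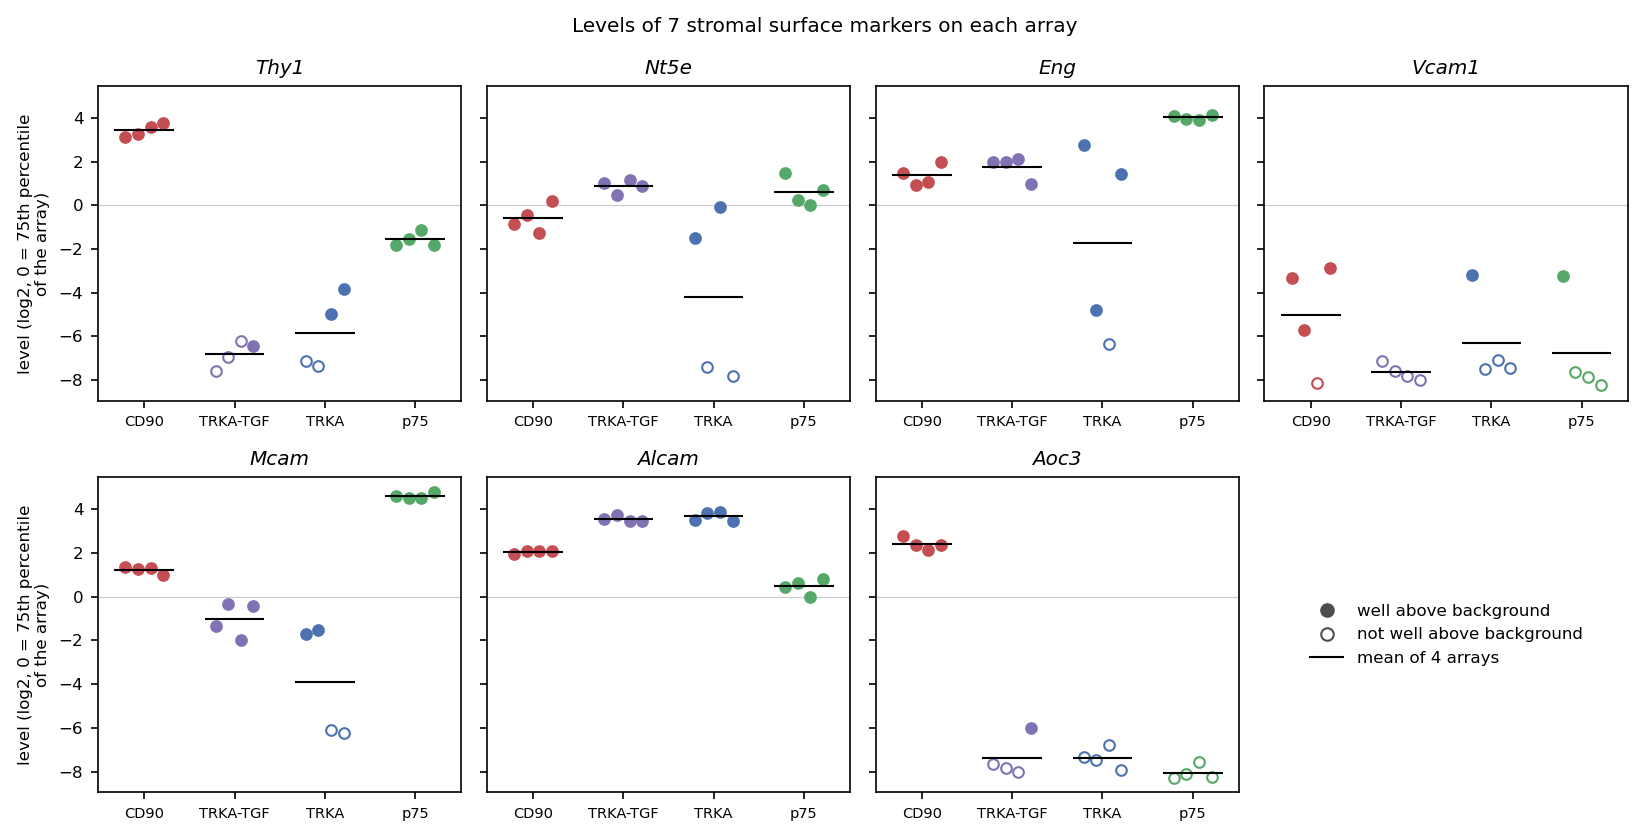
Level of each of the 7 genes on each array (vertical axis, log2 relative to the array's 75th percentile), with the 4 populations along the horizontal axis. Filled points were well above background, open points were not, and the line is the mean of 4 arrays. Thy1 and Aoc3 stood highest in CD90 cells, Eng and Mcam in p75 cells and Alcam in both TRKA populations, and the TRKA points of Nt5e, Eng and Mcam are split between measured and near-background values.

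Thy1, the gene of the sort antigen, had levels of 3.12, 3.28, 3.59 and 3.76 on the CD90 arrays (3.44 ± 0.29), which correspond to processed signals of 9130 to 14683. The TRKA-TGF arrays gave −7.57, −6.95, −6.20 and −6.45 (−6.79 ± 0.60, measured on 1 of 4), the TRKA arrays −7.12, −7.36, −4.99 and −3.83 (−5.83 ± 1.71, measured on 2 of 4), and the p75 arrays −1.80, −1.53, −1.11 and −1.80 (−1.56 ± 0.32, measured on 4 of 4). The CD90 arrays lay above all others, and the p75 arrays above all arrays of both TRKA populations. Thy1 was thus 32.0-fold higher in CD90 than in p75 cells, and the p75 cells gave signals of 365 to 573, well above background.

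The difference between the populations that were not sorted on CD90 was tested. Thy1 was lower in TRKA than in p75 cells (−4.27, SE 0.64, adjusted p = 0.000145) and lower in TRKA-TGF than in p75 cells (−5.23, SE 0.64, adjusted p = 5.37e-05). TRKA-TGF and TRKA cells overlapped, and their difference was not called (−0.97, SE 0.64, adjusted p = 0.296). With quantile normalization that difference was −2.45 and called lower in TRKA-TGF (adjusted p = 0.0151), and in the authors' deposited values −2.18 (adjusted p = 0.0290). Background correction by normexp, which pulls weak signals together, reduced TRKA versus p75 to −1.81 and TRKA-TGF versus p75 to −2.41, both still called. Integrin beta 3 (Itgb3), part of the integrin that binds CD90, stood at 2.49 ± 0.59 in CD90, 0.11 ± 0.42 in TRKA-TGF, 0.91 ± 0.21 in TRKA and 2.73 ± 0.39 in p75 cells. It was lower in TRKA than in p75 cells (−1.82, adjusted p = 0.000636), lower in TRKA-TGF than in p75 cells (−2.62, adjusted p = 6.52e-05) and higher in CD90 than in TRKA cells (1.58, adjusted p = 0.00181).

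The 10 genes whose pattern lay nearest to that of Thy1 were found by the root mean square difference of levels over the 16 arrays, after each gene was centred on its own mean, among 12671 candidates. They were C1s (1.18), Fbn2 (1.36), Adgrl2 (1.42), Ptpn14 (1.42), Ptprk (1.44), Pawr (1.45), Tshz3 (1.48), Tanc1 (1.52), Pcdh9 (1.55) and Myl9 (1.57), where the spread of Thy1 itself about its mean was 4.13. C1s encodes a protease of the classical complement pathway, Fbn2 the microfibril protein fibrillin 2 and Myl9 a light chain of smooth muscle and non-muscle myosin. C1s averaged 3.02 in CD90, −7.68 in TRKA-TGF, −7.18 in TRKA and −0.89 in p75 cells, and was measured on no array of either TRKA population. Myl9 averaged 4.37 in CD90, −4.36 in TRKA-TGF, −2.16 in TRKA and 1.10 in p75 cells. All 10 genes were measured on 4 of 4 CD90 arrays and on 3 or 4 p75 arrays. They were chosen on these same arrays for nearness to Thy1, so their order of populations follows from the choice.

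**Figure D2:**
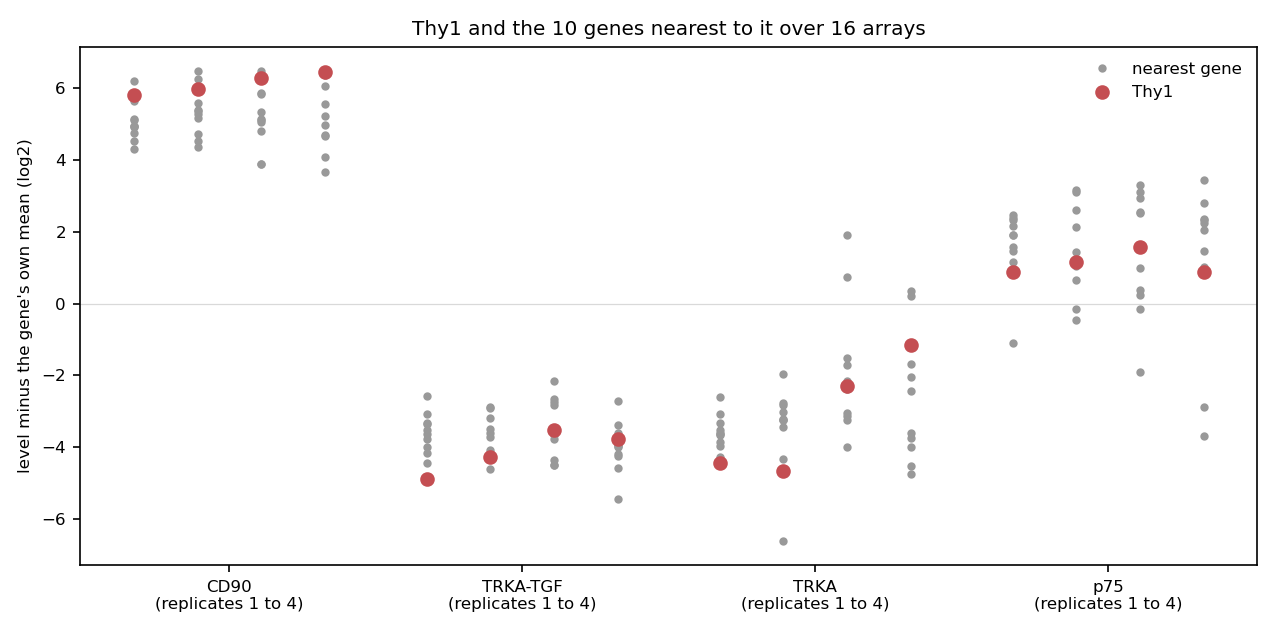
Level of Thy1 (red) and of its 10 nearest genes (grey) on each of the 16 arrays, each gene minus its own mean over the arrays (log2). Within a population the 4 columns of points are replicates 1 to 4. The mean of each of these genes was highest in CD90 cells, lower in p75 and lowest in both TRKA populations. That order follows from choosing the genes for nearness to Thy1 on these arrays. Single grey points leave it, as for Myl9 on TRKA replicate 3 (1.91) and for Ptprk (−3.69) and Pcdh9 (−2.88) on p75 replicate 4.

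Nt5e, which encodes the ecto-5′-nucleotidase CD73, was measured on all CD90, TRKA-TGF and p75 arrays and on 2 of the 4 TRKA arrays. Its levels were −0.87, −0.43, −1.29 and 0.20 in CD90 (−0.60 ± 0.64), 1.04, 0.48, 1.18 and 0.86 in TRKA-TGF (0.89 ± 0.30), −1.51, −7.41, −0.07 and −7.82 in TRKA (−4.20 ± 3.99), and 1.47, 0.24, 0.01 and 0.70 in p75 cells (0.60 ± 0.64). The CD90 cells, sorted on one marker of the trio, overlapped the p75 cells at this second one. CD90 and TRKA-TGF arrays did not overlap, yet the difference was not called (−1.49, SE 1.37, adjusted p = 0.584), and it was called when the fit held only these 2 populations (adjusted p = 0.0234).

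Nt5e was higher in TRKA-TGF than in TRKA cells (5.09, SE 1.37, adjusted p = 0.0142) and lower in TRKA than in p75 cells (−4.81, SE 1.37, adjusted p = 0.0144). The TRKA mean joins 2 arrays near background (replicates 2 and 4) with 2 measured ones that stood at −1.51 and −0.07. With only the 2 populations in the fit, neither was called (adjusted p = 0.096 and 0.0989). Normexp reduced them to 2.93 and −2.64, both called. CD90 versus TRKA (3.61, adjusted p = 0.0567) was called only without TRKA replicate 1 (4.50, adjusted p = 0.0227), without TRKA replicate 3 (4.98, adjusted p = 0.00456) or with array weights per group (adjusted p = 0.0391). CD90 versus p75 (−1.20, adjusted p = 0.768) and TRKA-TGF versus p75 (0.29, adjusted p = 0.944) were not called under any alternative. The SE of 1.37 leaves differences of a few log2 units undecided.

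Around CD73, Entpd1 (CD39, which supplies AMP from ATP) was higher in CD90 than in p75 cells (5.56, adjusted p = 0.0468), as was Slc29a1, a nucleoside transporter (5.76, adjusted p = 0.0205). Entpd1 averaged −1.79 ± 1.83 in CD90 and −7.36 ± 1.47 in p75 cells, and Slc29a1 −1.48 ± 0.23 in CD90 and −7.24 ± 1.73 in p75 cells, each gene measured on all 4 CD90 arrays and on 1 p75 array. The adenosine receptor Adora2b was higher in CD90 than in TRKA (4.52, adjusted p = 0.0133) and in TRKA-TGF cells (4.93, adjusted p = 0.0173), and Adora1 and Adora3 were called in none of the 6 comparisons. Ada, the deaminase that removes adenosine, was higher in TRKA than in p75 cells (5.78, adjusted p = 0.00324). Adk, the kinase that returns adenosine to AMP, averaged −2.61 ± 1.59 in TRKA-TGF and 0.99 ± 1.16 in TRKA cells (−3.60, adjusted p = 0.00344). The 3 genes nearest to Nt5e were C8h11orf54, Clcc1 and Smpd2, at root mean square differences of 0.60 to 0.80, and each was measured on 2 or 3 of 4 TRKA arrays.

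Eng, the gene of the third marker of the trio, had its highest levels in p75 cells. It stood at 1.49, 0.94, 1.05 and 2.00 in CD90 (1.37 ± 0.48), 1.98, 1.96, 2.11 and 0.99 in TRKA-TGF (1.76 ± 0.52), 2.75, −4.79, −6.33 and 1.41 in TRKA (−1.74 ± 4.49, measured on 3 of 4), and 4.10, 3.94, 3.90 and 4.16 in p75 cells (4.03 ± 0.12). Every p75 array lay above every array of the other populations, with signals of 18496 to 23476. The TRKA arrays ranged between a level above all CD90 and TRKA-TGF arrays and one near background.

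Eng was lower in TRKA than in p75 cells (−5.76, SE 1.52, adjusted p = 0.00903), and this was the gene's only call. With only the 2 populations in the fit it was not called (adjusted p = 0.0801). CD90 versus p75 (−2.66, SE 1.52, adjusted p = 0.418) and TRKA-TGF versus p75 (−2.27, adjusted p = 0.415) were not called although the arrays did not overlap in this fit, which shares one spread per gene over all 4 populations. Fitted on the 2 populations alone, CD90 was lower than p75 (adjusted p = 0.00126) and TRKA-TGF lower than p75 (adjusted p = 0.00113), with the same differences. CD90 versus TRKA-TGF was −0.39 (adjusted p = 0.923), CD90 versus TRKA 3.11 (adjusted p = 0.133) and TRKA-TGF versus TRKA 3.50 (adjusted p = 0.109). The last of these was called without TRKA replicate 1 (4.99, adjusted p = 0.0119) or replicate 4 (4.55, adjusted p = 0.0424), and so was CD90 versus TRKA (4.60, adjusted p = 0.0139, and 4.16, adjusted p = 0.0496).

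Among the genes of the TGF-beta pathway in which CD105 acts, the ligand Tgfb3 stood at 2.65 ± 0.20 in CD90 and 0.43 ± 0.26 in p75 cells (2.22, adjusted p = 2.65e-05), and was measured on no array of TRKA-TGF or TRKA. It was at least 72.9-fold lower in TRKA-TGF than in p75 cells (adjusted p = 2.32e-11) and at least 59.2-fold lower in TRKA than in p75 cells (adjusted p = 2.5e-11). Tgfb1 ran the other way, with 1.48 ± 0.21 in TRKA-TGF and 1.98 ± 0.35 in TRKA cells against −0.24 ± 0.68 in p75 cells (1.72, adjusted p = 0.0253, and 2.22, adjusted p = 0.00245). Acvrl1, the receptor kinase paired with endoglin in endothelium, was measured on no p75 array, and was at least 34.3-fold higher in TRKA-TGF than in p75 cells (adjusted p = 0.0364). The receptor gene Tgfbr2 was lower in CD90 than in TRKA cells (−2.02, adjusted p = 0.00372), and Tgfbr1 lower in CD90 than in TRKA-TGF cells (−4.01, adjusted p = 0.0326) and higher in TRKA-TGF than in p75 cells (4.34, adjusted p = 0.0209). Bmpr2 was called in 0 of the 6 comparisons. Gdf11 (0.86), a ligand of the TGF-beta family, and Smad2 (0.98), a mediator of TGF-beta signalling, were among the genes nearest to Eng.

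Mcam, which encodes CD146, was likewise highest in p75 cells. Its levels were 1.37, 1.29, 1.32 and 1.01 in CD90 (1.25 ± 0.16), −1.35, −0.34, −1.97 and −0.43 in TRKA-TGF (−1.02 ± 0.78), −1.69, −1.53, −6.09 and −6.21 in TRKA (−3.88 ± 2.63, measured on 2 of 4), and 4.64, 4.52, 4.54 and 4.81 in p75 cells (4.63 ± 0.13). The p75 arrays lay above the CD90 arrays, and these above all arrays of both TRKA populations. Processed signals reached 28898 to 35628 in p75 cells.

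Mcam was lower in TRKA than in p75 cells (−8.51, SE 0.93, adjusted p = 9.15e-06) and lower in TRKA-TGF than in p75 cells (−5.65, adjusted p = 0.000668). It was higher in CD90 than in TRKA cells (5.13, adjusted p = 0.000647), and lower in CD90 than in p75 cells (−3.38, adjusted p = 0.0419). The last call was lost when any 1 CD90 or p75 array was left out (adjusted p = 0.0819 to 0.0933) and with the replicate number as a block (adjusted p = 0.0508), while the difference stayed between −3.46 and −3.30 over all 18 alternatives. TRKA-TGF versus TRKA was called at 2.86 (adjusted p = 0.0361), with TRKA replicates 1 and 2 inside the TRKA-TGF range, and it was not called with quantile normalization (1.85, adjusted p = 0.0991), in the authors' deposited values (1.92, adjusted p = 0.112) or with only the 2 populations in the fit (adjusted p = 0.162). With normexp it was 1.44 and called (adjusted p = 0.0349). It was also lost without TRKA replicate 3 or 4 or without TRKA-TGF replicate 1, 2 or 4 (adjusted p = 0.0597 to 0.0985). CD90 versus TRKA-TGF (2.27, adjusted p = 0.135) was not called although the arrays did not overlap, and it was called with quantile normalization (adjusted p = 0.0389), with normexp (adjusted p = 0.00461), with array weights per group (adjusted p = 0.00845) and with only the 2 populations (adjusted p = 0.0058).

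The p75 cells, where Eng and Mcam were highest, also measured all 12 glia markers on 4 of 4 arrays, with a summed level of 7.31 to 7.39 per array, against 2.48 to 2.72 in CD90, 1.46 to 1.61 in TRKA-TGF and −0.79 to 0.92 in TRKA cells. A summed level is the log2 of the added unlogged levels of a list, so its strongest genes weigh most. Endothelial cells also carry CD105 and CD146. Of the 10 endothelial genes tested, 6 were measured on all 4 p75 arrays (75% of all genes) and 7 on all 4 CD90 arrays (77.4% of all genes). Cdh5, Cldn5, Flt1, Kdr, Robo4 and Vwf were measured on every CD90 and p75 array. Cdh5 averaged −2.22 ± 1.34 in CD90 and −3.64 ± 0.24 in p75 cells. Pecam1 was measured on all 4 TRKA arrays but on no CD90 or p75 array, and Tie1 on no p75 array. The part of glia or endothelial RNA in the Eng and Mcam levels was not tested. The summed level of the 10 endothelial genes tested was −0.86 to 1.89 in CD90, 1.82 to 2.56 in TRKA-TGF, 0.47 to 2.65 in TRKA and −1.41 to 0.61 in p75 cells. Cldn5, a tight junction gene of that list, was itself lower in CD90 than in p75 cells (−3.90, adjusted p = 0.000902), and Erg, a transcription factor of the list, was higher in CD90 (4.31, adjusted p = 0.00592). Wnt5a, a ligand of CD146, was measured on all CD90 arrays (−4.87 ± 0.61) and no p75 array, and was at least 2.3-fold higher in CD90 (adjusted p = 0.0346). The 3 genes nearest to Mcam were Glipr2 (1.00), Hspa2 (1.26) and Col27a1 (1.28).

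Alcam, the gene of CD166, was measured on all 16 arrays and had the smallest SE of the 7 genes. It stood at 1.94, 2.09, 2.09 and 2.08 in CD90 (2.05 ± 0.07), 3.56, 3.74, 3.46 and 3.47 in TRKA-TGF (3.56 ± 0.13), 3.52, 3.85, 3.86 and 3.49 in TRKA (3.68 ± 0.20), and 0.46, 0.65, −0.03 and 0.81 in p75 cells (0.47 ± 0.36). Both TRKA populations lay above CD90, and CD90 above p75, with no overlap between these 3 steps. Alcam was 9.24-fold higher in TRKA than in p75 cells (log2 3.21, SE 0.22, adjusted p = 1.16e-07) and 8.49-fold higher in TRKA-TGF than in p75 cells (log2 3.09, adjusted p = 2.9e-07). CD90 cells were 2.98-fold above p75 cells (log2 1.58, adjusted p = 0.000349), and below TRKA cells (−1.63, adjusted p = 6.02e-05) and TRKA-TGF cells (−1.51, adjusted p = 0.000286).

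These 5 calls held under all 18 alternatives run for each, and CD90 versus TRKA narrowed to −0.68 with quantile normalization (adjusted p = 0.0177). TRKA-TGF versus TRKA was −0.12 (SE 0.22, adjusted p = 0.730) and turned to 0.71 with quantile normalization (adjusted p = 0.0192) and to 0.65 in the authors' deposited values (adjusted p = 0.0326), so the order of the TRKA populations depended on the scaling. The macrophage markers had their highest levels in the same populations, with summed levels of 4.02 to 4.995 in CD90, 7.80 to 7.84 in TRKA-TGF, 9.21 to 9.55 in TRKA and 2.66 to 3.47 in p75 cells, and their part in the Alcam levels was not tested. Cd6, the leukocyte receptor of CD166, was higher in TRKA-TGF (−0.86 ± 0.13) than in TRKA cells (−2.22 ± 0.67, adjusted p = 0.0126). Zcchc2 (0.40), Dap (0.40) and Sat1 (0.48) were nearest to Alcam over the arrays.

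Aoc3 separated CD90 cells from all others. Its CD90 levels were 2.79, 2.35, 2.13 and 2.38 (2.41 ± 0.27), against −7.64, −7.82, −8.01 and −6.00 in TRKA-TGF (−7.37 ± 0.92, measured on replicate 4 only), −7.34, −7.48, −6.79 and −7.91 in TRKA (−7.38 ± 0.46, measured on 0) and −8.30, −8.13, −7.58 and −8.27 in p75 cells (−8.07 ± 0.33, measured on 0). Processed signals were 4859 to 7241 in CD90 cells and at most 17.0 on every other array. Aoc3 was at least 358-fold higher in CD90 than in p75 cells (adjusted p = 9.9e-10) and at least 233-fold higher than in TRKA cells (adjusted p = 9.79e-10). These bounds set the dim arrays at the lowest level of any probe measured on all its spots, and such a bound is approximate. Against TRKA-TGF cells the fitted difference was 9.78 (SE 0.41, adjusted p = 1.94e-09), which fell to 6.32 under normexp and stayed called. Only probes measured on at least 4 of 16 arrays were tested. That of Aoc3 was measured on 5, of which 4 were CD90 arrays, so it was tested only because of the CD90 cells. Its calls in the CD90 comparisons held under all 18 alternatives, among them a fit without this filter.

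Aoc3 is known from smooth muscle, vessel and fat cells, and the genes of these cells did not all follow it. Of 12 mural and smooth muscle genes 10 were tested, and Kcnj8 and Abcc9 did not pass the filter. In CD90 cells 7 of these 10 were higher than in TRKA-TGF cells (7.19% of all genes), 7 of 10 higher than in TRKA cells (16.6%) and 4 of 10 higher than in p75 cells (3.68%), with 0 lower in each. Among them the calponin gene Cnn1 (4.40, adjusted p = 1.55e-05) and the myosin light chain kinase gene Mylk (6.44, adjusted p = 0.00013) were higher in CD90 than in p75 cells. Rgs5, a gene of pericytes, was measured on CD90 arrays only, through which it passed the filter. It was at least 25.6-fold higher in CD90 than in p75 cells (adjusted p = 2.88e-06). Notch3, of the same list, averaged −0.88 ± 0.81 in CD90 and −1.94 ± 0.63 in p75 cells. Des averaged −4.69 ± 0.99 in CD90 and −5.65 ± 2.35 in p75 cells. Of 8 fat cell genes 5 were tested, and Adipoq, Plin1 and Slc2a4 did not pass the filter. Fabp4, Lpl and Pparg were lower in CD90 than in TRKA-TGF cells (−4.86, −6.69 and −4.77, adjusted p = 3.3e-05, 0.000514 and 0.00135). These were 3 of 5 (7.72% of all genes were lower), and Lep and Cidec were not called. Which cells gave these levels was not tested. Against p75 cells Fabp4 was at least 128-fold higher in CD90 cells (adjusted p = 1.75e-07) and Lpl at least 3.5-fold higher (adjusted p = 0.0371). These were 2 of 5 (3.68% of all genes), and Pparg, Lep and Cidec were not called. The 3 nearest genes to Aoc3 were Omd (0.70), which encodes osteomodulin, Fmo1 (1.06), a monooxygenase gene, and Acan (1.09), the gene of the cartilage proteoglycan aggrecan. Each was measured on all CD90 arrays and on at most 1 other array, which their choice by nearness to Aoc3 favours.

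Vcam1 was near background in most samples. It stood at −3.33, −5.73, −8.12 and −2.89 in CD90 (−5.02 ± 2.41, measured on 3 of 4), −7.11, −7.58, −7.82 and −8.00 in TRKA-TGF (−7.63 ± 0.38, measured on 0), −3.17, −7.48, −7.08 and −7.45 in TRKA (−6.30 ± 2.09, measured on 1) and −3.25, −7.64, −7.85 and −8.22 in p75 cells (−6.74 ± 2.34, measured on 1). The groups overlapped in all 6 comparisons, and the largest difference, CD90 versus TRKA-TGF, was 2.61 (SE 1.33, adjusted p = 0.248). Its highest processed signal was 146. The integrin chain Itga4, part of the VCAM-1 receptor, was higher in TRKA-TGF (2.74 ± 0.25) than in TRKA cells (−2.50 ± 2.57, measured on 3 of 4; 5.24, adjusted p = 0.00143), and lower in CD90 (−1.76 ± 1.33) than in TRKA-TGF cells (−4.49, adjusted p = 0.00648). Its partner chain Itgb1 was measured on all arrays, at group means of 3.36 to 4.49. Hapln1, Fndc5 and Lcn12 lay nearest to Vcam1, at 1.38 to 1.43, close to its own spread of 1.96.

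Counted together, 4 of the 7 genes were called in CD90 versus p75 against 7.25% of all genes, with 3 higher (3.68% of all genes) and 1 lower (3.57%). In CD90 versus TRKA 4 were called against 34.9%, with 3 higher (16.6%) and 1 lower (18.3%), and in CD90 versus TRKA-TGF 3 were called against 14.9%, with 2 higher (7.19%) and 1 lower (7.72%). Leaving out Thy1, which the sort fixed, the counts called were 3, 3 and 2 of 6. In TRKA-TGF versus TRKA 2 were called against 26.4%, with 2 higher (13.5%) and 0 lower (12.9%). In TRKA-TGF versus p75 3 were called against 15.1%, with 1 higher (7.97%) and 2 lower (7.15%). In TRKA versus p75 5 were called against 35.7%, with 1 higher (18.8%) and 4 lower (16.9%). The share of 2 of 7 in TRKA-TGF versus TRKA is near the background. The 2 groups of arrays did not overlap for 5 of the 7 genes in CD90 versus p75 (19% of all genes), 4 in CD90 versus TRKA (30%), 5 in CD90 versus TRKA-TGF (28.6%), 1 in TRKA-TGF versus TRKA (26.4%), 4 in TRKA-TGF versus p75 (28.8%) and 5 in TRKA versus p75 (31.5%). Leaving out Thy1, these counts were 4, 3 and 4 of 6 in CD90 versus p75, TRKA and TRKA-TGF. The median difference over the 7 genes was 1.58 in CD90 versus p75, 3.61 in CD90 versus TRKA, 2.27 in CD90 versus TRKA-TGF, 0.01 in TRKA-TGF versus TRKA, −0.89 in TRKA-TGF versus p75 and −4.27 in TRKA versus p75. Leaving out Thy1, the median over the other 6 genes was 0.19 in CD90 versus p75, 3.36 in CD90 versus TRKA and 0.94 in CD90 versus TRKA-TGF. Over all genes tested these medians lay between −0.15 and 0.19. Comparisons with a population in common share its 4 arrays, so their counts are not independent.

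**Figure D3:**
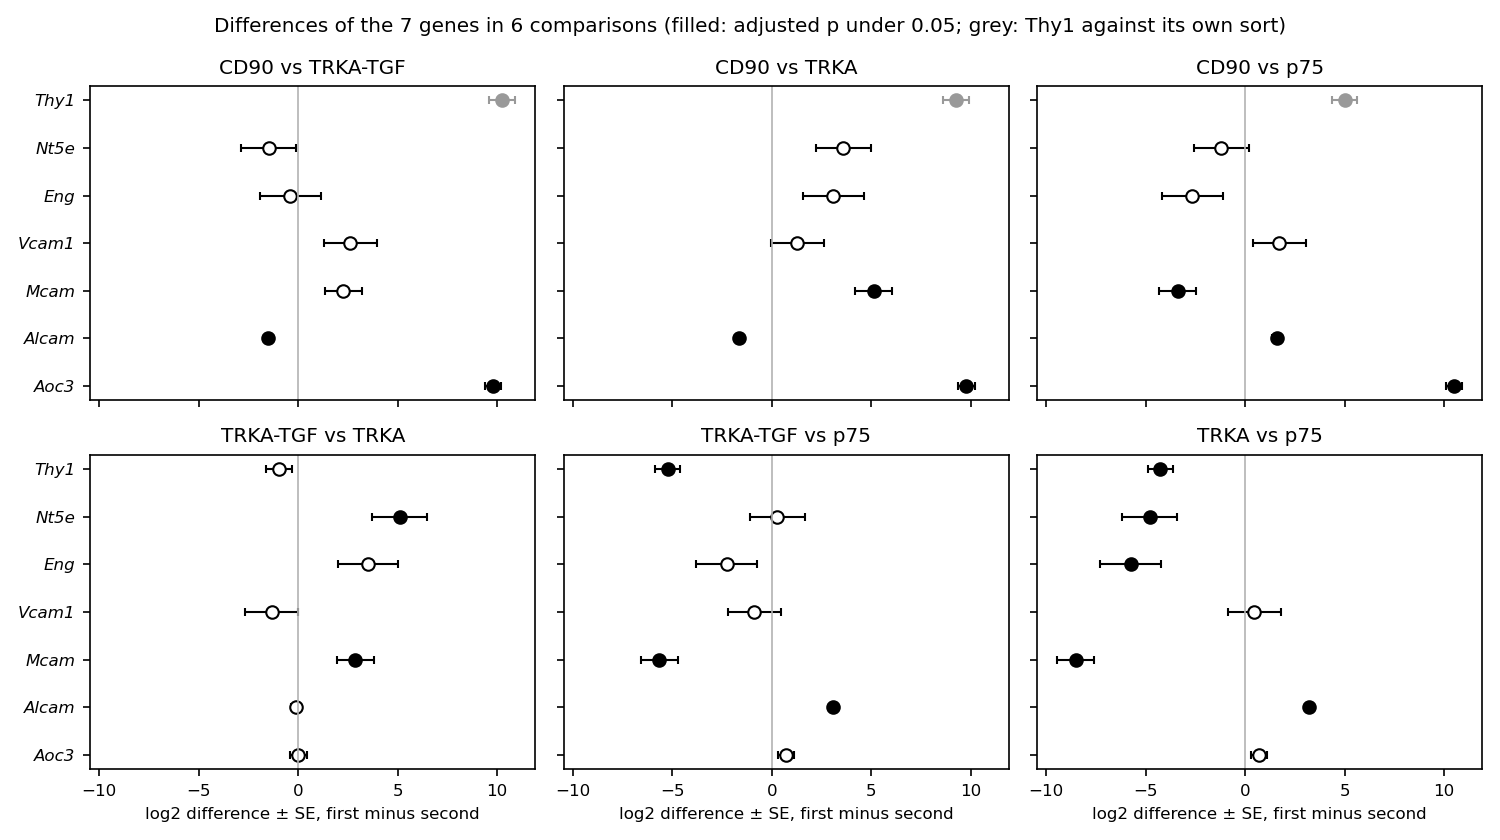
Difference ± SE (horizontal axis, log2, first population minus second) of the 7 genes in the 6 comparisons. Filled points were called at an adjusted p under 0.05, open points were not, and grey points are Thy1 against the population sorted on its product, shown without a test. Aoc3 stands near 10 in the 3 CD90 comparisons, Alcam is called in all but TRKA-TGF versus TRKA, and the bars of Nt5e, Eng and Vcam1 are the longest.

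Other surface markers of stromal cells, a list of 18 genes of which 16 were tested, gave more higher than lower calls in CD90 cells. In CD90 versus p75 5 were higher (3.68% of all genes), 1 lower and 10 not called, and the median difference was 2.66. Against TRKA and against TRKA-TGF 10 were higher (16.6% and 7.19% of all genes), 1 lower and 5 not called in each, with medians of 5.68 and 6.14. Itga11, a collagen receptor chain (3.47 ± 0.11 in CD90, −2.99 ± 3.47 in p75), was higher in CD90 than in p75 cells (6.46, adjusted p = 0.0107), and so was the peptidase gene Anpep (3.44, adjusted p = 7.76e-06). The proteoglycan gene Cspg4 was higher in CD90 than in TRKA cells (5.34, adjusted p = 1.33e-05), and the growth factor receptor gene Pdgfrb higher in CD90 than in TRKA-TGF cells (8.08, adjusted p = 0.00185). The hyaluronan receptor gene Cd44 was the 1 lower gene in each comparison (−2.38, −1.29 and −1.50 against p75, TRKA and TRKA-TGF, adjusted p = 0.00137, 0.0201 and 0.019). Anpep was also higher in TRKA-TGF (3.88, adjusted p = 1e-06) and TRKA (3.66, adjusted p = 9.8e-07) than in p75 cells, and Pdpn, the podoplanin gene, lower in TRKA-TGF than in p75 cells (−8.36, adjusted p = 2.95e-06).

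All 15 fibroblast genes were measured on every CD90 array and were higher in CD90 than in TRKA (16.6% of all genes) and in TRKA-TGF cells (7.19%). Against p75 cells 6 of 15 were higher (3.68%) and 0 lower (3.57%). The summed level of the 15 genes was 9.09 to 9.28 in CD90, 2.92 to 4.08 in TRKA-TGF, 7.03 to 7.40 in TRKA and 7.79 to 7.89 in p75 cells. Strong genes weigh most in it, such as Col1a1 (6.89 ± 0.14 in TRKA cells). The median over the genes was 3.75 in CD90, −5.06 in TRKA-TGF, −5.74 in TRKA and 0.56 in p75 cells. In TRKA cells 4 of these genes were measured on all 4 arrays and 6 on 0, against 9 and 1 in p75 cells. Of all genes, 77.4% were measured on all 4 CD90 arrays, 52.3% on all 4 TRKA arrays and 75% on all 4 p75 arrays. Stromal cells are usually also required to lack a set of leukocyte markers. Of its 6 tested genes, Ptprc (CD45) was measured on 2 of 4 CD90 arrays, 4 TRKA-TGF, 4 TRKA and 0 p75 arrays. The other 5 were measured on all 4 CD90 arrays (77.4% of all genes). There Cd14 averaged 0.24 ± 0.94, Itgam 0.84 ± 0.12, RT1-Da 0.11 ± 0.29, Kit −3.35 ± 0.95 and Cd79a −4.71 ± 0.66. Itgam was higher in CD90 than in p75 cells (3.05, adjusted p = 0.0138), and so were 6 of 12 macrophage genes (3.68% of all genes), among them Csf1r (2.84, adjusted p = 0.0205) and Cd68 (2.58, adjusted p = 0.000946). In TRKA versus p75 all 12 macrophage genes were higher (18.8% of all genes). The part of these cells' RNA in the levels of the 7 genes was not tested. T cell, neuron and epithelial markers, with only 3, 3 and 6 genes tested, gave at most 1 higher and 1 lower gene per list in each of the 6 comparisons. Over all genes 3.68 to 18.8% were higher and 3.57 to 18.3% lower, depending on the comparison. Some of them were measured in CD90 cells: the keratin gene Krt8 stood at −0.14 ± 0.79 on 4 of 4 arrays and was at least 39.7-fold higher than in TRKA cells (adjusted p = 0.00188), and the T cell gene Cd5 stood at −4.70 ± 0.87 on 4 of 4 and was higher than in TRKA cells (2.06, adjusted p = 0.0190). The neuron genes Tubb3 (−1.95 ± 0.33, on 4 of 4 arrays) and Stmn2 (−2.67 ± 4.00, on 3 of 4) were called in no CD90 comparison. Cd3e averaged −6.47 (on 3 of 4), Snap25 −5.21 (on 3 of 4) and Epcam −7.45 (on 0).

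**Figure D4:**
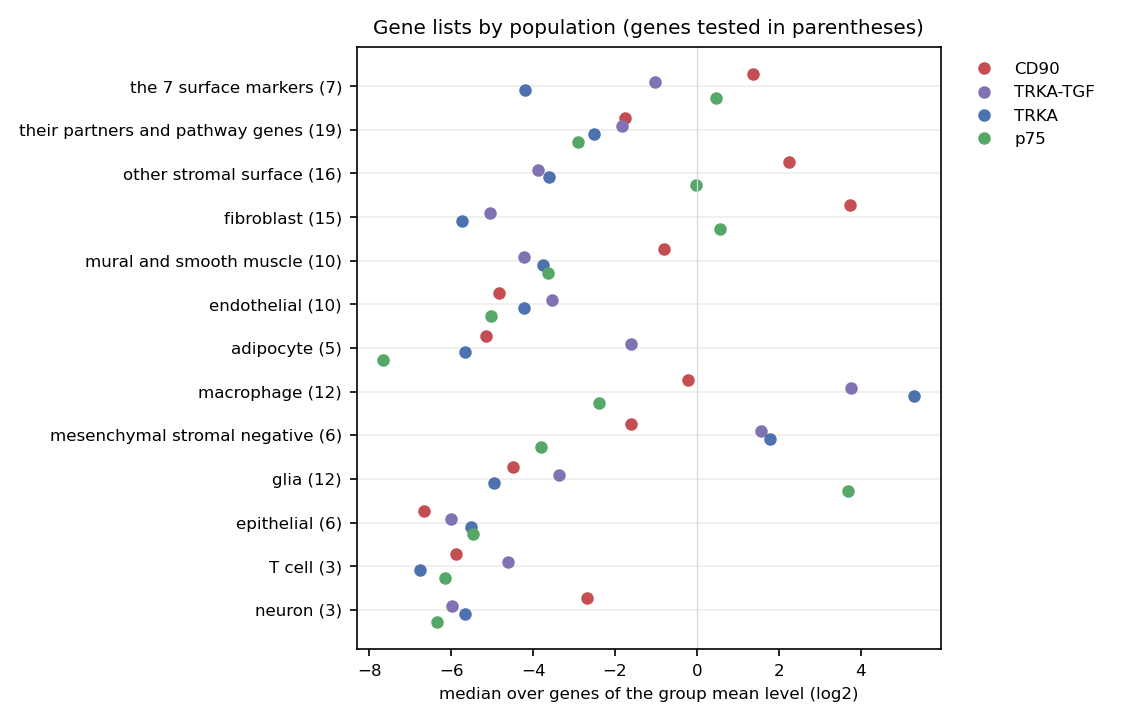
Median over the genes of each list of the group mean level (horizontal axis, log2 relative to the array's 75th percentile), with 1 point per population and the number of genes tested in parentheses. CD90 points lie highest for other stromal surface, fibroblast and mural genes, the p75 point for glia and both TRKA populations for macrophage and leukocyte markers. Medians are compared between populations within a list, not between lists.

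The partner genes of the 7 proteins (19 of 22 tested) were counted in the same fit. In CD90 versus p75 4 were higher and 0 lower (7.25% of all genes were called), in CD90 versus TRKA 5 higher and 2 lower (34.9%), and in CD90 versus TRKA-TGF 6 higher and 4 lower (14.9%). TRKA-TGF versus TRKA gave 2 higher and 1 lower (26.4%), TRKA-TGF versus p75 4 higher and 2 lower (15.1%), and TRKA versus p75 2 higher and 3 lower (35.7%). The remaining genes were not called, which left 9 to 16 of 19 per comparison.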

How the data were processed

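Expression was measured on 16 single-colour Agilent arrays labelled with Cy3, 4 for each of 4 populations, with groups and replicate numbers taken from the sample titles. Per the file headers, the deposited files are scanner output with linear intensity values per spot, and the processed signal is an intensity from which Feature Extraction subtracted background (version 10.7.3.1 in the headers, 10.5 in the submitters' processing notes). The PCR amplification that the labels' protocols describe can widen differences of scarce transcripts. The authors also deposited log2 values of the same arrays, which followed quantile-normalized signals centred on each probe (r of at least 0.9966 per array) with column medians of −0.03 to 0.19; how they were scaled and centred is not given in the sources used here, and they served as an alternative.

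Log2 processed signals were averaged over the spots of a probe, without spots marked non-uniform or as population outliers, and the array's 75th percentile over 30367 probes was subtracted. Probes measured on at least 4 of 16 arrays were kept, and a gene was its kept probe with the highest mean. A gene could thus be kept through the population where it is high. Aoc3, Rgs5, Wnt5a and Slc29a1 were so kept through CD90 cells, and Pparg through TRKA-TGF cells. A probe counted as measured where at least 0.5 of its spots were. Probes were named through a RefSeq gene table of GRCr8 by accession (18355), symbol (2758) or synonym (422), and 8832 kept the file's name. limma 3.58.1 in R 4.3.3 (data.table, version 1.17.8) fitted 1 mean per group to all 16 arrays, and p-values were adjusted by Benjamini-Hochberg over 20571 genes. The fit was run on simulated data for TRKA-TGF versus p75 only. That run does not cover comparisons with TRKA cells, whose median SD per gene was 1.08, against 0.54 in TRKA-TGF and 0.65 in p75 cells. The number of arrays limits the precision, and p-values measure the spread between these samples.

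The 13 gene lists, of which the 7 genes are 1, were chosen with earlier results of these data known. Besides the 7 genes, the text names the 10 genes nearest to Thy1, the 3 nearest to each other gene, and from the lists genes with the largest called differences or those that define a marker or partner. One item that this rule selects is not reported here. The nearest genes had a current symbol and were measured on all 4 arrays of at least 1 group. Partner and marker genes named beyond that rule were chosen after their values were seen. Equal replicate numbers did not deviate together over 24 pairs of arrays (r −0.03 to 0.04), so they were not used to pair samples. Alternatives were other scalings, background correction, filters, probe rules, variance settings, a replicate block and leaving out each array in turn.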

Additional observations from a re-analysis of the deposited data

Results flagged for a closer look

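Of 28 sets of 4 arrays (7 genes in 4 populations), 4 held an array set apart from the other 3 by Dixon's test, which chance does in about 1 set in 20. Eng was lowest on TRKA-TGF replicate 4 (0.99). Vcam1 was highest on TRKA replicate 1 (−3.17) and on p75 replicate 1 (−3.25), the only array of each population on which it was measured. Alcam was lowest on CD90 replicate 1 (1.94).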

How the results depend on the processing

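Over the 7 genes, 6 comparisons and 18 alternatives each, 708 differences kept their direction and their side of the threshold, 17 gained a call, 20 lost one and 11 changed sign, and of the counts of called genes 101 stayed within 1.5 times and 7 did not. With only the 2 populations compared in the fit, the count was 5 in CD90 versus TRKA-TGF (20.3% of all genes called in that fit), 0 in TRKA-TGF versus TRKA (18.7%) and 3 in TRKA versus p75 (24.6%). Leaving out 1 array gave 1 to 3 called genes in TRKA-TGF versus TRKA (21 to 28.3% of all genes), with Eng, Mcam and Nt5e called without TRKA replicate 1 and Nt5e alone without TRKA replicate 3 or TRKA-TGF replicate 1, 2 or 4. The sign changed for Alcam in TRKA-TGF versus TRKA (0.71 with quantile normalization, 0.65 in the authors' deposited values), for Aoc3 in TRKA-TGF versus TRKA (−0.46 with quantile normalization, −0.31 with normexp, −0.58 in the authors' deposited values, −0.02 without TRKA replicate 2, and, with 1 array left out, −0.44 without TRKA-TGF replicate 4 to 0.23 without TRKA-TGF replicate 3, below 0 also without TRKA replicate 4, −0.16), for Vcam1 in TRKA versus p75 (−0.60 without TRKA replicate 1 to 1.61 without p75 replicate 1, and −0.05 without p75 replicate 4) and for Vcam1 in TRKA-TGF versus p75 (−1.38 without p75 replicate 4 to 0.28 without p75 replicate 1). The cause was not tested. With a replicate block the counts were 3 in CD90 versus p75 (Mcam lost, adjusted p = 0.0508), 4 in CD90 versus TRKA, 3 in CD90 versus TRKA-TGF, 2 in TRKA-TGF versus TRKA, 3 in TRKA-TGF versus p75 and 5 in TRKA versus p75. The shares of all genes called with that block were, in the same order, 6.43%, 33.7%, 13.8%, 24.9%, 14.2% and 34.8%. Scaling moved the median of all genes in TRKA versus p75 to 0.31 (quantile) and 0.37 (normexp) from −0.01, and the share of higher calls to 66.9% with normexp against 52.7%. That share was 38.7% with quantile normalization and 37.3% with normexp in CD90 versus TRKA, against 47.7%, and 39.2% and 38.8% in TRKA-TGF versus TRKA, against 51.1%. Mcam in CD90 versus p75 was called in 9 of 18 alternatives. Levels near background, as of Vcam1 and Aoc3 outside CD90 cells, carry no order.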
